A study of Mus musculus with 18 samples.

Results

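The neural proteoglycan and tenascin matrix genes are 9 genes, Vcan, Bcan, Ncan, Cspg4, Cspg5, Ptprz1, Tnr, Tnc and Hapln1, chosen by gene name in the 2 deposited expression tables. They are 9 of 55183 genes in the table of cultured cells and 9 of 19464 in the table of brains. RNA sequencing was done on 18 mouse libraries in 6 groups of 3. In cells, the groups were CT-179 for 144 h and vehicle for 144 h (culture day 6), and CT-179 for 24 h and vehicle for 24 h (culture day 1). All 12 cell libraries came from PTCP53 304, a single cell line labelled as Sonic hedgehog (SHH) medulloblastoma with the genotype Ptch1+/-; Trp53-/-, so the vehicle controls carry the same alleles as the treated cells. CT-179 is a small molecule inhibitor of the transcription factor OLIG2, and no dose is stated in the labels. The brain groups were CT-179 and vehicle, given to Ptch1+/- mice for 12 days from postnatal day 3 to postnatal day 15, when whole brains were taken. The brain genotype label also carries the letters IR, which are not explained. The 3 brain libraries with a CT-179 treatment label have letter V sample names and titles that also contain the word vehicle, and the vehicle libraries have letter C names, so each direction in brain rests on the treatment label. Nothing in the labels says that replicates were separate cultures or animals, or whether animals were pooled, so each p-value reflects the spread among libraries, which may be technical.

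Vcan, Bcan and Ncan encode versican, brevican and neurocan, which are lecticans. Lecticans are secreted chondroitin sulfate proteoglycans that bind hyaluronan at the amino terminus and tenascins at the carboxyl terminus. Hapln1 encodes a link protein that locks lecticans to hyaluronan, and together with tenascin-R these proteins build the perineuronal nets of the maturing brain. Cspg4 (NG2) and Cspg5 (neuroglycan C) encode proteoglycans that span the membrane, with NG2 a marker of oligodendrocyte precursors and pericytes. Ptprz1 encodes a receptor tyrosine phosphatase of glial precursors, part of whose product is a secreted proteoglycan, and pleiotrophin is its ligand. Tnc is the tenascin of embryonic and injured tissue, and Tnr is the tenascin of the central nervous system, made by oligodendrocyte lineage cells and some neurons.

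Implied depth ran from 2.84e+07 to 6.83e+07 reads in genes for cell libraries, and from 1.71e+07 to 6.09e+07 for brain ones, with the vehicle brain replicate 2 the shallowest. Cell libraries of 1 group correlated at 0.996 or above (Pearson's r across genes), except CT-179 144 h replicate 2, which correlated at 0.941 and 0.943 with its group. In that library long genes were low and short genes high against its own group, so tests in cells were run with all 12 cell libraries and with the 11 that omit it. With 11 libraries the CT-179 144 h group holds only 2, and the spread in its tests is shared with the other cell groups. Of the markers of granule neuron precursors and SHH medulloblastoma, Gli1 and Ptch1 were present in the cells, whereas Atoh1 averaged 0.0135 FPKM or less and Barhl1 0.0064 FPKM or less in every cell group. The cells carried oligodendrocyte precursor markers, with Olig2 at 203 ± 19.7 FPKM (CT-179) and 201 ± 4.27 FPKM (vehicle) at 144 h and 401 ± 10.9 FPKM (CT-179) and 382 ± 15.2 FPKM (vehicle) at 24 h (SD, n = 3 each), but Sox10 was at most 0.319 FPKM on average and Mog was at 0. They carried astrocyte markers too: all 7 reached 1 FPKM at 144 h, with sums of 1040 to 1180 FPKM under CT-179 and 1060 to 1080 FPKM with vehicle, and 4 of 7 did at 24 h, with sums of 491 to 502 FPKM under CT-179 and 458 to 490 FPKM with vehicle. Microglial and endothelial marker sums stayed at or below 0.273 FPKM in every cell library, while in brain every marker list had members at 1 FPKM or more.

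The brain proteoglycans dominated the group at every time and in both tissues. FPKM is the number of fragments per kilobase of exon, scaled to the depth of the library, so it compares genes per length. Bcan was the most abundant of the 9 genes in all 6 groups, and Ncan and Ptprz1 followed in the 4 cell groups. In cells at 24 h under CT-179 the order was Bcan (224 ± 11.1 FPKM, SD, n = 3), Ncan (104 ± 4.22), Ptprz1 (51.2 ± 1.13), Cspg5 (24.6 ± 1.21), Cspg4 (22.2 ± 1.80), Tnc (12.5 ± 0.374), Vcan (5.85 ± 0.262), Tnr (1.03 ± 0.0151) and Hapln1 (0.112 ± 0.0264). Only Cspg5 and Cspg4 overlapped as neighbours in that order. With vehicle at 144 h Vcan stood next after Ptprz1, at 37.5 ± 0.763 FPKM, and Tnc (5.56 ± 0.181) and Tnr (5.29 ± 0.267) overlapped. In brain, Bcan was followed by Cspg5 and Ncan, which overlapped, then Ptprz1, Tnr, Hapln1, Tnc, Cspg4 and Vcan. Tnc and Cspg4 overlapped in both brain groups, and in the vehicle brains Ncan also overlapped Ptprz1, Hapln1 overlapped Tnc, and Cspg4 overlapped Vcan. Hapln1 was nearly absent from the cells: it ranged from 0.00857 to 0.168 FPKM over the 12 libraries, with 2 to 43 implied reads per library, and was not tested there. Cells and brains were normalized separately, so levels are not compared between them beyond order and ratios within a library.

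**Figure D1:**
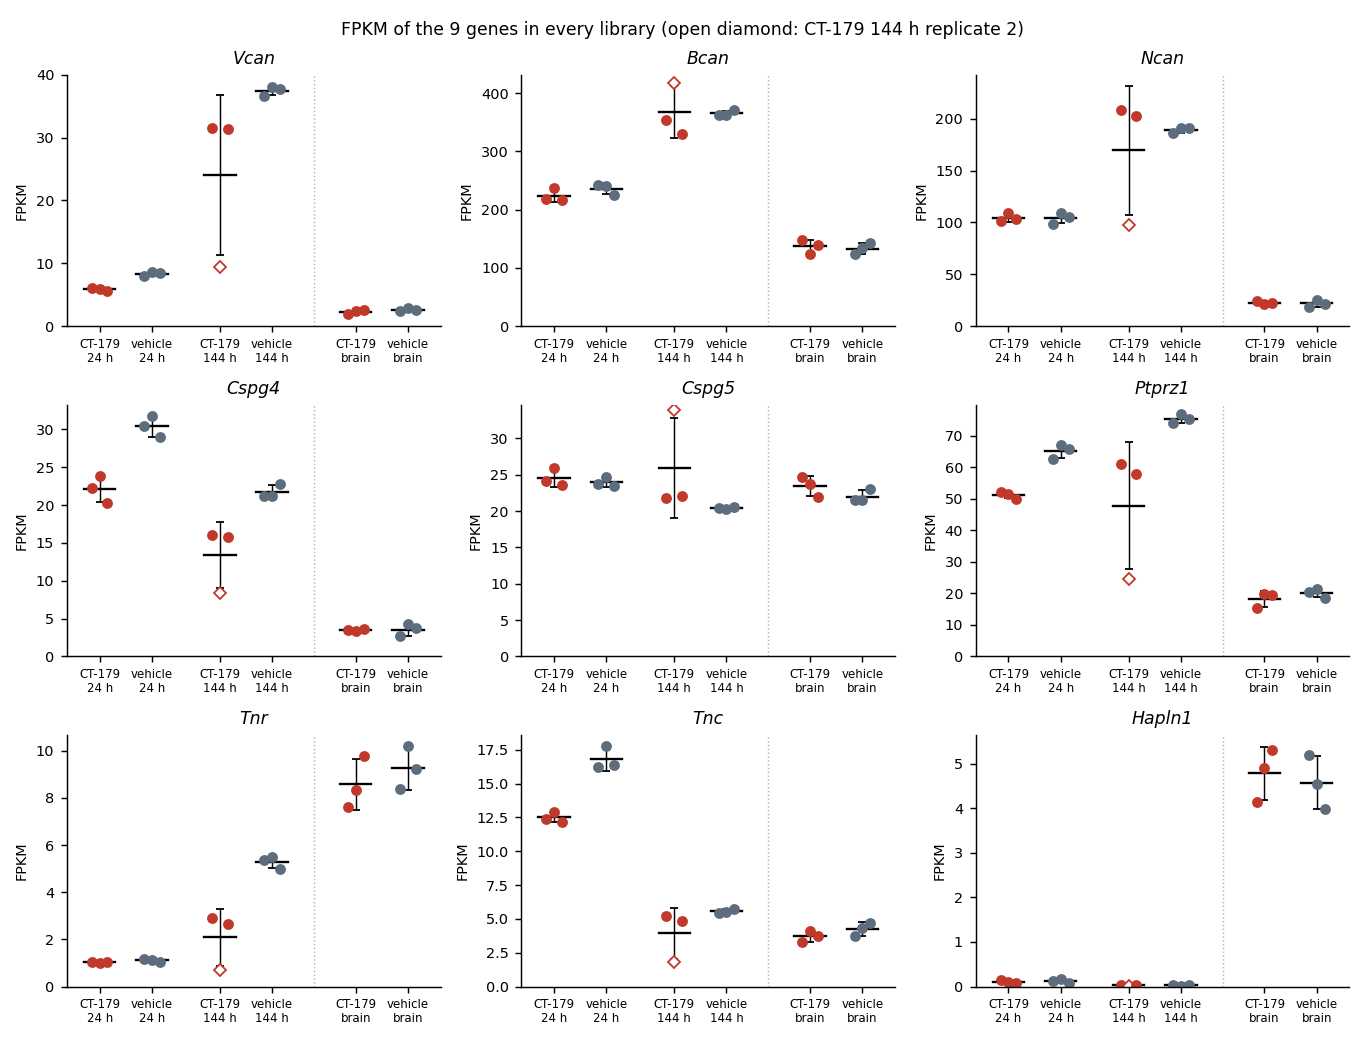
FPKM (vertical axes, linear from 0) of each of the 9 genes in every library, by group; black lines and whiskers are the mean and SD of 3 libraries, CT-179 is red, vehicle is grey, and the dotted line parts cells from brain, which were normalized separately. CT-179 144 h replicate 2 (open diamond) lies below its 2 group mates for 7 genes and above them for Bcan and Cspg5, and the CT-179 brain points overlap the vehicle ones for every gene.

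The genes lie apart in the genome except Hapln1 and Vcan, which are neighbours on mouse chromosome 13 (mm10; GENCODE M21 gene spans). Vcan spans chr13:89655312-89742509 on the minus strand and Hapln1 chr13:89539796-89611652 on the plus strand. Bcan spans chr3:87987531-88000230 (minus), Ncan chr8:70093085-70120873 (minus), Cspg4 chr9:56865033-56899870 (plus), Cspg5 chr9:110243783-110262576 (plus), Ptprz1 chr6:22875502-23052916 (plus), Tnr chr1:159523769-159931729 (plus) and Tnc chr4:63959785-64047015 (minus). Vcan, Ptprz1, Tnr, Cspg4 and Cspg5 have 10074 bases or more of exon in the union of their transcripts, and Bcan has 4064. Tnr shares 443 exonic bases with the antisense gene Gm38039, and Tnc shares 176 with 8030451A03Rik on the opposite strand. The strand of counting was not given, so reads of such pairs cannot be told apart.

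The promoters of Ncan, Vcan and Tnr are shown because Ncan held the most E-box words of the members, Vcan and Tnr had the largest ratios between culture times with vehicle, and Tnr had the lowest ratio of CT-179 to vehicle at 144 h. OLIG2 is a basic helix-loop-helix protein, a class that binds the E-box. Each runs 5′ to 3′ from 250 bases before to 50 bases after the gene's start (RefSeq, GRCm38.p6), and capitals mark the E-box letters CANNTG, searched on both strands, which read alike because the motif is its own reverse complement.
Ncan, chr8:70120795-70121094, minus strand: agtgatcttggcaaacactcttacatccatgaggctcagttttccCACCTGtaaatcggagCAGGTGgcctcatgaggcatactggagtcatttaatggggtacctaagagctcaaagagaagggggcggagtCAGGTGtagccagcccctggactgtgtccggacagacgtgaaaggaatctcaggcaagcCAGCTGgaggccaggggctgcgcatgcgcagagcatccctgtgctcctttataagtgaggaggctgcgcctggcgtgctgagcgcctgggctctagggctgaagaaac
Vcan, chr13:89742463-89742762, minus strand: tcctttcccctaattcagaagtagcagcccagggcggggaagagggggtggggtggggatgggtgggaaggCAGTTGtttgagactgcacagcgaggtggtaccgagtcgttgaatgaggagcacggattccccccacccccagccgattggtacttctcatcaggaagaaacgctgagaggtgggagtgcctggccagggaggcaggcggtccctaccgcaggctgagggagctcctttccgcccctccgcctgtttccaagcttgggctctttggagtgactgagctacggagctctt
Tnr, chr1:159523519-159523818, plus strand: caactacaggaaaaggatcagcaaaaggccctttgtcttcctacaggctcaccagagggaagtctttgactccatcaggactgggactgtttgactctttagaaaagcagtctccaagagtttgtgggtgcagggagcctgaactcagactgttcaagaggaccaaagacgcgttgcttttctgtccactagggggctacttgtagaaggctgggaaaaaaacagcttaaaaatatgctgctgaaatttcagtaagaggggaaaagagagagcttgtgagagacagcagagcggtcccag
Ncan held 4 E-box words, 1 of them CAGCTG, Vcan held 1 (CAGTTG) and Tnr held none in this window. Of the 8 members with a promoter in the table, Ncan, Vcan and Tnc held CANNTG, against 72.3% of all 32851 promoters, and 16.3% of all promoters held CAGCTG. The GLI motif GACCACCCA was found in none of the 8 and in 0.253% of all promoters. These matches describe letters and say nothing of binding.

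Tenascin-R was the member with the widest gap between treated and control cells. At 144 h Tnr had 2.92, 0.684 and 2.65 FPKM under CT-179 (replicates 1, 2 and 3), against 5.36, 5.51 and 4.99 FPKM with vehicle. All 3 CT-179 libraries lay below all 3 vehicle libraries, also with replicate 2 set aside. The ratio of the means was 0.394, and 0.526 without CT-179 replicate 2. Fold changes here are of log2(FPKM + 1), so those of low genes are understated. For Tnr the value was −1.12 ± 0.25 with 12 libraries (SE, adjusted p = 0.037 by limma) and −0.73 ± 0.053 with 11 (adjusted p = 1.76e-05). The 12-library call did not survive leaving out any 1 of the 9 libraries of the other groups (adjusted p 0.0627 to 0.145), nor a pseudocount of 0.1, no filter, TPM scaling, the replicate block (adjusted p = 0.0589) or a fit of 144 h alone, and the 11-library call held under each of the 3 corrections run on it. At 24 h Tnr was at 1.03, 1.01 and 1.04 FPKM under CT-179, against 1.17, 1.11 and 1.05 FPKM with vehicle, a log2 fold change of −0.06 ± 0.048 with 11 libraries that did not pass (adjusted p = 0.434).

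The CT-179 effect on Tnr was tested for a difference between the times. The effect at 144 h minus that at 24 h was −1.07 ± 0.35 with 12 libraries (adjusted p = 0.693) and −0.68 ± 0.071 with 11 (adjusted p = 0.00217). Tnr was the only one of 8 tested members whose difference passed with 11 libraries, where 2.66% of 12459 genes passed in either direction. None of the 8 passed with all 12 libraries by limma, where 0% of 12510 genes passed (574 genes and 1 member, Tnr, at an unadjusted p below 0.05).

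Cspg4, Ptprz1 and Vcan were lower under CT-179 at both times in the 11-library fit. Cspg4 had 22.3, 23.9 and 20.3 FPKM under CT-179 at 24 h, against 30.4, 31.8 and 29.0 FPKM with vehicle. At 144 h Cspg4 had 16.1, 8.43 and 15.8 FPKM under CT-179, against 21.2, 21.2 and 22.8 FPKM with vehicle. No CT-179 value reached a vehicle value at either time, and the ratio of means was 0.730 at 24 h and 0.619 at 144 h (0.734 without CT-179 replicate 2). The Cspg4 log2 fold change with 11 libraries was −0.44 ± 0.054 early (adjusted p = 0.000448) and −0.42 ± 0.060 late (adjusted p = 0.000633). With 12 libraries it was −0.44 ± 0.19 (adjusted p = 0.915) and −0.70 ± 0.19 (adjusted p = 0.0713), so neither passed. In bulk RNA, fewer cells that make a transcript and less of it per cell cannot be told apart.

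Ptprz1, the receptor phosphatase, was likewise lower under CT-179 at both times in the 11-library fit. It had 52.1, 51.6 and 49.9 FPKM under CT-179 at 24 h, against 62.6, 66.9 and 65.6 FPKM with vehicle. At 144 h it had 61.0, 24.5 and 57.8 FPKM under CT-179, against 74.0, 76.7 and 75.3 FPKM with vehicle. The groups did not overlap at either time. The Ptprz1 log2 fold change with 11 libraries was −0.34 ± 0.031 early (adjusted p = 7.77e-05) and −0.34 ± 0.035 late (adjusted p = 0.000103). The 12-library values, −0.34 ± 0.26 and −0.75 ± 0.26, did not pass (adjusted p = 1 and 0.134).

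Vcan, the most widely expressed lectican, had 6.10, 5.89 and 5.58 FPKM under CT-179 at 24 h, against 7.93, 8.57 and 8.40 FPKM with vehicle. At 144 h it had 31.6, 9.34 and 31.3 FPKM under CT-179, against 36.6, 38.0 and 37.8 FPKM with vehicle. CT-179 libraries were lower without overlap at both times, but replicate 2 set the size of the gap at 144 h: the ratio of means was 0.642 with it and 0.839 without it. The Vcan log2 fold change with 11 libraries was −0.44 ± 0.036 early (adjusted p = 3.44e-05) and −0.25 ± 0.040 late (adjusted p = 0.00132). With 12 libraries it was −0.44 ± 0.35 (adjusted p = 1) and −0.80 ± 0.35 (adjusted p = 0.168).

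Tnc was lower under CT-179 at 24 h, again in the 11-library fit. It had 12.4, 12.9 and 12.2 FPKM under CT-179, against 16.2, 17.8 and 16.4 FPKM with vehicle, without overlap. The Tnc log2 fold change was −0.40 ± 0.043 with 11 libraries (adjusted p = 0.000237) and −0.40 ± 0.24 with 12 (adjusted p = 1). At 144 h Tnc had 5.20, 1.79 and 4.82 FPKM under CT-179, against 5.41, 5.50 and 5.76 FPKM with vehicle, without overlap. The Tnc log2 fold change there did not pass with 11 libraries (−0.13 ± 0.048, adjusted p = 0.0715) or with 12 (−0.49 ± 0.24, adjusted p = 0.178). The late effect minus the early one, 0.27 ± 0.065 with 11 libraries, missed the threshold too (adjusted p = 0.0533).

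Brevican, neurocan and neuroglycan C did not pass the test between treatments in either fit. Bcan had 354, 417 and 330 FPKM under CT-179 at 144 h, against 362, 363 and 370 FPKM with vehicle, and 219, 237 and 216 FPKM under CT-179 at 24 h, against 243, 240 and 225 FPKM with vehicle. Ncan had 101, 109 and 103 FPKM under CT-179 at 24 h, against 98.8, 109 and 105 FPKM with vehicle. The groups overlapped in each of these comparisons, though without CT-179 replicate 2 Bcan at 144 h lay wholly below vehicle. At 144 h Ncan had 208, 97.4 and 203 FPKM under CT-179, against 186, 191 and 191 FPKM with vehicle, so 2 CT-179 libraries lay above and 1 below every vehicle library. Cspg5 had 21.8, 33.9 and 22.1 FPKM under CT-179 at 144 h, against 20.4, 20.3 and 20.5 FPKM with vehicle, all 3 above, and 24.2, 25.9 and 23.6 FPKM under CT-179 at 24 h, against 23.7, 24.7 and 23.5 FPKM with vehicle. With 11 libraries the 144 h log2 fold changes were −0.09 ± 0.047 for Bcan (adjusted p = 0.153), 0.12 ± 0.042 for Ncan (adjusted p = 0.0572) and 0.10 ± 0.037 for Cspg5 (adjusted p = 0.0628). With 12 libraries they were 0.000081 ± 0.089 for Bcan (adjusted p = 1), −0.24 ± 0.23 for Ncan (adjusted p = 0.422) and 0.30 ± 0.14 for Cspg5 (adjusted p = 0.171), so the sign of Ncan turned and the value of Cspg5 was larger.

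Counted over the 8 tested members, none passed at 24 h with 12 libraries by limma (1, Cspg4, at an unadjusted p below 0.05), where 0.264% of 12510 genes passed in either direction. At 144 h 1 member was lower and none higher, where 3.37% of genes were lower and 0.512% higher. With 11 libraries 4 were lower and none higher at 24 h, where 14.1% of 12459 genes were lower and 8.08% higher. At 144 h 4 were lower and none higher with 11 libraries, where 16.9% were lower and 11.8% higher. Scaling changed that split over all genes. With median-of-ratios scaling of the 11 libraries 8.62% of genes were lower and 21% higher at 24 h and 11.4% lower and 22.3% higher at 144 h, and with TPM scaling 26.9% were lower and 3.07% higher at 24 h and 26.6% lower and 5.41% higher at 144 h. Vcan, Cspg4, Ptprz1 and Tnc at 24 h, and Tnr, Ptprz1, Cspg4 and Vcan at 144 h, were below vehicle under each of these scalings. The 24 h estimates are identical in both fits. Only the shared spread changed, as the standard error of Vcan shows (0.35 with 12 libraries, 0.036 with 11). Without any test, 5 members (Cspg4, Ptprz1, Tnc, Tnr and Vcan) had every CT-179 library below every vehicle library at 24 h, where 22.9% of genes did so, and the same 5 did at 144 h, where 27% did. Cspg5 alone lay wholly above at 144 h, as 19.1% of genes did. Without CT-179 144 h replicate 2, Bcan joined the 5 below, where 32.7% of genes lay wholly below, and Ncan joined Cspg5 above, where 27% lay wholly above. The median log2 fold change with 12 libraries was −0.21 over the 8 members at 24 h and −0.60 at 144 h, beside −0.01 and −0.05 over all genes tested, and −0.19 at 144 h with 11 libraries, beside −0.01.

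**Figure D2:**
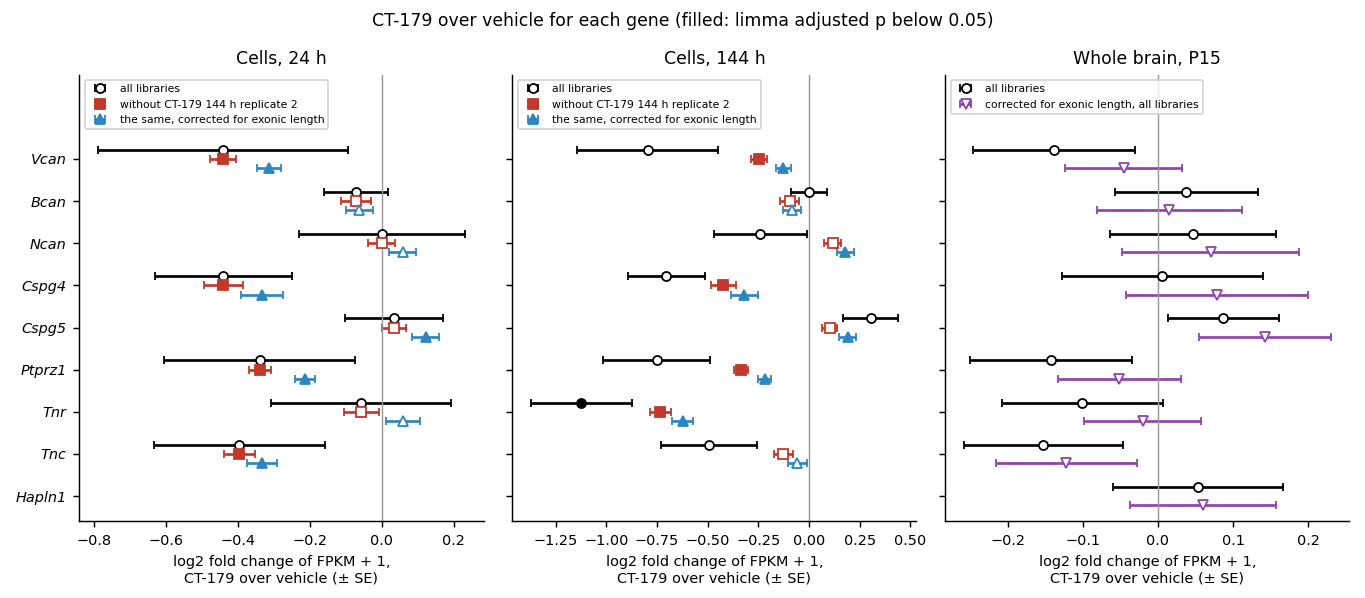
Log2 fold change of FPKM + 1, CT-179 over vehicle, with its standard error (horizontal axes, which differ between panels) for each gene in cells at 24 h, cells at 144 h and whole brain; filled symbols passed limma's adjusted p of 0.05, and in cells black is 12 libraries, red 11 and blue 11 with a correction for exonic length, while in brain black is uncorrected and purple corrected. Red error bars are narrower than black ones, Tnr lies at −0.73 in red at 144 h and near 0 at 24 h, and no symbol is filled in brain.

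Gene length moved with these differences. The tested members other than Bcan lay at or above the 76.3 percentile of exonic length among tested coding genes, and Bcan lay at 42.4. Over 11020 protein-coding genes, exonic length had a Spearman rho of −0.52 with the 24 h fold change and −0.68 with the 144 h fold change (−0.44 with 11 libraries). The link is a description across genes, which are not independent replicates. After a loess correction for length with 11 libraries, 4 members were lower (Vcan −0.31, Cspg4 −0.33, Ptprz1 −0.21 and Tnc −0.33, log2 fold change) and Cspg5 higher (0.12 ± 0.037, adjusted p = 0.0478) at 24 h, where 6.92% of 12089 genes were lower and 8.61% higher. At 144 h Tnr (−0.62), Cspg4 (−0.32), Ptprz1 (−0.22) and Vcan (−0.13) were lower and Ncan (0.18 ± 0.042, adjusted p = 0.0111) and Cspg5 (0.19 ± 0.042, adjusted p = 0.00784) higher, where 10.3% of genes were lower and 13.1% higher. The Cspg5 correction used 10074 bases, while its 4 coding transcripts run from 2107 to 7868 bases. That of Cspg4 used 11931 bases, while its 1 coding transcript has 8121. That of Ptprz1 used 14245, while its 3 coding transcripts run from 4947 to 8068. The length used exceeded the longest coding transcript for every tested member except Ncan. Which part of each difference follows length was not tested further.

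The library that stood apart showed the same order by length within 1 group. CT-179 144 h replicate 2 differed from the mean of replicates 1 and 3 by −1.65 for Vcan, −1.24 for Ptprz1, −1.17 for Tnr, −1.10 for Tnc, −1.07 for Ncan and −0.84 for Cspg4 (log2 differences). It was above that mean by 0.28 for Bcan and 0.60 for Cspg5. Over the tested coding genes the median deviation was 0.80 in the shortest of 10 length bins and −0.78 in the longest, with a Spearman rho of −0.69 against length. All 6 members below the mean of their group mates also lay below the median of their length bin.

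**Figure D3:**
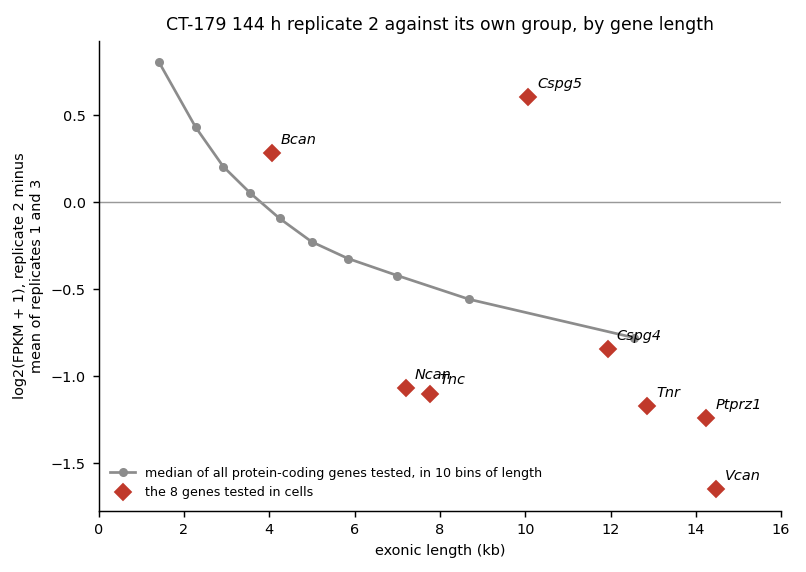
Deviation of CT-179 144 h replicate 2 from the mean of replicates 1 and 3 (log2(FPKM + 1), vertical axis) against exonic length in kilobases (horizontal axis) for the 8 tested members (red), with medians of all tested protein-coding genes in 10 bins of length (grey). The grey medians run from 0.80 to −0.78, and Vcan lies lowest of the members at −1.65 while Cspg5 lies at 0.60.

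Culture time raised some of these genes and lowered others, with the widest differences for Vcan, Tnr and Tnc. With vehicle, Vcan had 36.6, 38.0 and 37.8 FPKM at 144 h, against 7.93, 8.57 and 8.40 FPKM at 24 h, a ratio of means of 4.52. Tnr had 5.36, 5.51 and 4.99 FPKM at 144 h, against 1.17, 1.11 and 1.05 FPKM at 24 h, a ratio of 4.77. The lecticans and Tnr were higher late: log2 fold changes with vehicle (12 libraries) were 2.05 ± 0.35 for Vcan (adjusted p = 0.000375), 1.58 ± 0.25 for Tnr (adjusted p = 0.000228), 0.86 ± 0.23 for Ncan (adjusted p = 0.00734) and 0.63 ± 0.089 for Bcan (adjusted p = 9.78e-05). Tnc and Cspg4 were lower late. Tnc had 5.41, 5.50 and 5.76 FPKM at 144 h, against 16.2, 17.8 and 16.4 FPKM at 24 h, and its log2 fold change was −1.44 ± 0.24 (adjusted p = 0.000303). Cspg4 changed by −0.47 ± 0.19 (adjusted p = 0.0489), a call that was lost in 9 of the 12 fits that left out 1 library. With 12 libraries 4 members were higher and 2 lower, where 34.1% of genes were higher and 32.4% lower, and with 11 libraries 5 were higher and 3 lower, where 44.2% were higher and 43.4% lower. The added members were Ptprz1 (0.21 ± 0.031) and Cspg5 (−0.22 ± 0.033). Exonic length had a Spearman rho of 0.051 with this change. Markers of other cell states moved with it: with vehicle the astrocyte marker sum was 1060 to 1080 FPKM at 144 h, against 458 to 490 FPKM at 24 h, with Gfap at 93.7 ± 6.84 FPKM, against 0.411 ± 0.0476 FPKM. The myelin marker sum was 55.1 to 58.1 FPKM at 144 h, against 6.78 to 7.11 FPKM at 24 h. Cnp made up most of that sum, at 53.1 ± 1.4 FPKM, against 6.11 ± 0.237 FPKM. Only 2 of the 7 myelin markers reached 1 FPKM at 144 h, and Mog was at 0, so the sum does not stand for the whole list. Gpr17, a marker of committed precursors, was at 49.3 ± 3.16 FPKM, against 0.228 ± 0.0127 FPKM (SD, n = 3 each). The part of these markers in the members' changes over time was not tested.

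Under CT-179 each of the 8 tested members changed with time in the direction it took with vehicle (11 libraries). Vcan changed by 2.24 ± 0.040, Ncan by 0.97 ± 0.042, Bcan by 0.61 ± 0.047 and Tnc by −1.17 ± 0.048 (log2 fold changes, 144 h over 24 h, 11 libraries, adjusted p 2.5e-13 to 1.3e-07). Tnr changed by 0.90 ± 0.053 (adjusted p = 1.07e-08) under CT-179, against 1.58 ± 0.048 with vehicle, and that gap is the Tnr difference between times tested above. With 12 libraries Tnr at 0.51 ± 0.25 did not pass (adjusted p = 0.0968), and 3 members were higher and 2 lower, where 33.2% of genes were higher and 32.1% lower. With 11 libraries 5 were higher and 3 lower, where 43.9% were higher and 41.7% lower. Most genes changed with time, and nothing particular to the members is read from these counts. With 12 libraries the sign under CT-179 was opposite to that with vehicle for Ptprz1 (−0.20 ± 0.26, adjusted p = 0.516) and Cspg5 (0.047 ± 0.14, adjusted p = 0.775).

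**Figure D4:**
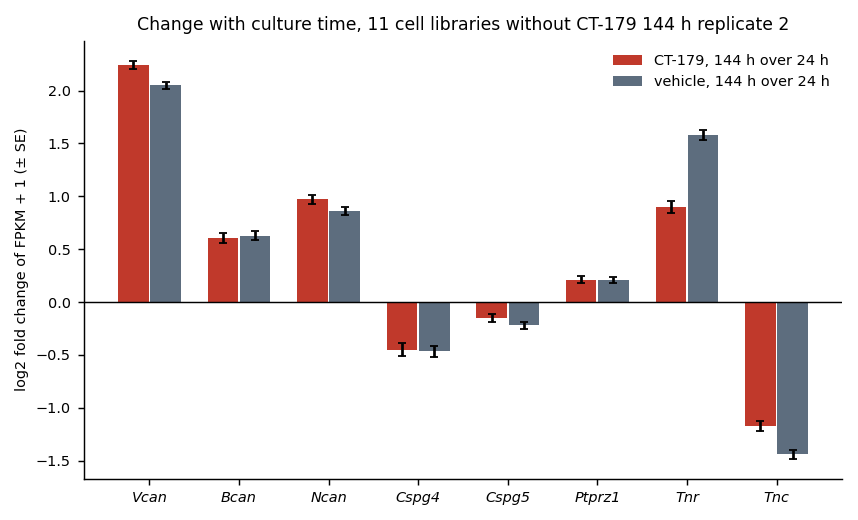
Log2 fold change of FPKM + 1, 144 h over 24 h, under CT-179 (red) and with vehicle (grey) for the 8 tested members, with standard errors, from the 11 cell libraries without CT-179 144 h replicate 2. Vcan stands at 2.24 and 2.05, Tnc at −1.17 and −1.44, and the bars of Tnr differ, at 0.90 under CT-179 and 1.58 with vehicle.

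Ratios within a library set the members' balance apart from the scaling of the tables, but not from the relation to gene length. Vcan has 14462 exonic bases and Ncan 7195, Tnr has 12867 and Tnc 7772, and Bcan has 4064. Which part of each ratio's difference follows length was not tested. The Tnc to Tnr ratio of FPKM was 2.07 ± 0.474 under CT-179 at 144 h and 1.05 ± 0.0845 with vehicle, and 12.2 ± 0.569 under CT-179 at 24 h and 15.1 ± 1.17 with vehicle (SD, n = 3 each). In brain it was 0.437 ± 0.0558 in the libraries labelled CT-179 and 0.460 ± 0.0461 in the vehicle libraries. Tnc exceeded Tnr in every 24 h cell library, the 2 were nearly equal in the 144 h vehicle libraries, and Tnr exceeded Tnc in every brain library. The groups did not overlap between treatments at either time in cells, with or without replicate 2, and did in brain. The Tnc to Tnr ratio was 1.78, 2.62 and 1.82 in the CT-179 144 h libraries. Bcan over Ncan was 1.70, 4.28 and 1.63 under CT-179 at 144 h and 1.95, 1.90 and 1.94 with vehicle. Replicate 2 alone put the CT-179 mean (2.54 ± 1.51) above that of vehicle (1.93 ± 0.0265), and the other 2 CT-179 libraries lay below every vehicle library. In brain Bcan over Ncan was 6.06 ± 0.155 and 6.14 ± 0.726 in the CT-179 and vehicle brains. Vcan over Ncan was 0.0562 ± 0.00364 under CT-179 and 0.0796 ± 0.000907 with vehicle at 24 h, and 0.152, 0.0959 and 0.154 under CT-179 and 0.197, 0.199 and 0.198 with vehicle at 144 h, lower under CT-179 with or without replicate 2.

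**Figure D5:**
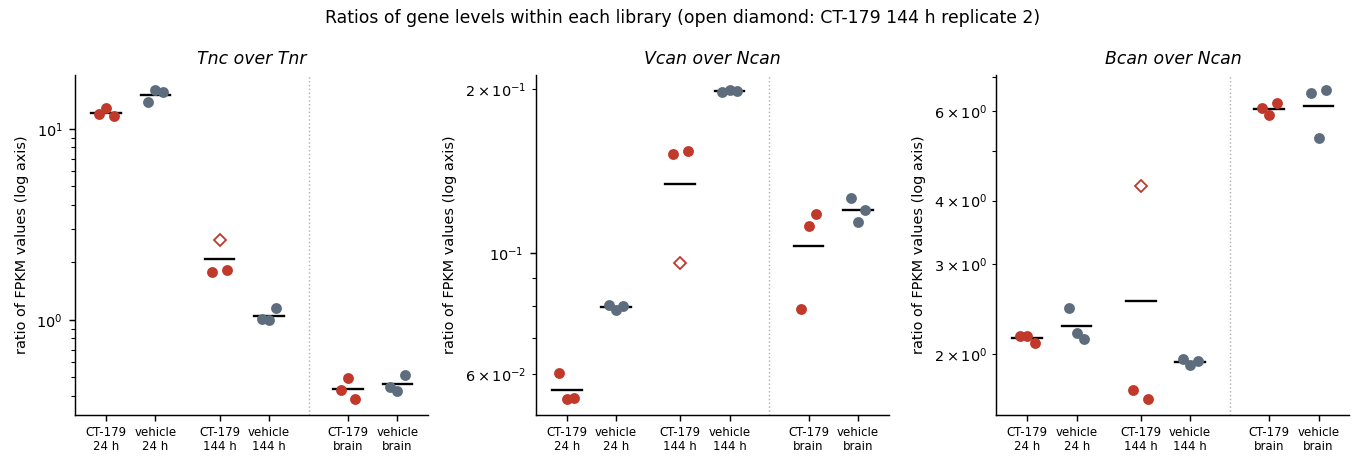
Ratios of FPKM values within each library (vertical log axes) for Tnc over Tnr, Vcan over Ncan and Bcan over Ncan, by group, with group means as bars, CT-179 in red, vehicle in grey and CT-179 144 h replicate 2 as an open diamond. Tnc over Tnr is lower at 144 h than at 24 h in cells and is below 1 in all 6 brain libraries, and Bcan over Ncan is highest in brain.

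In brain, none of the 9 members passed the test between treatments, and 0% of 13422 genes passed (limma; 490 genes and no member at an unadjusted p below 0.05). Tnc had 3.28, 4.13 and 3.76 FPKM in the libraries labelled CT-179, against 3.72, 4.32 and 4.72 FPKM in the vehicle libraries. Vcan had 1.91, 2.35 and 2.64 FPKM with the CT-179 label, against 2.39, 2.89 and 2.58 FPKM with vehicle. Tnr had 7.63, 8.33 and 9.77 FPKM with the CT-179 label, against 8.37, 10.2 and 9.22 FPKM with vehicle. The groups overlapped for these and for all 9 genes, so that none lay wholly higher or wholly lower, where 5.71% and 4.6% of genes did. The largest uncorrected log2 fold changes were −0.15 ± 0.11 for Tnc, −0.14 ± 0.11 for Ptprz1 and −0.14 ± 0.11 for Vcan (adjusted p = 0.97 each). Exonic length had a Spearman rho of −0.4 with the brain fold change, and after the length correction these values were −0.12 for Tnc, −0.052 for Ptprz1 and −0.046 for Vcan, with Cspg5 the largest at 0.14 ± 0.088 (adjusted p = 0.998 each). Hapln1, present here, had 4.14, 4.89 and 5.31 FPKM with the CT-179 label, against 5.18, 4.55 and 3.98 FPKM with vehicle. Summed myelin markers were 5460 to 6860 FPKM in CT-179 brains and 5040 to 5440 FPKM in vehicle brains, and their part in these values was not tested. In the authors' deposited table, whose log2 fold change ran as vehicle replicates 1 and 3 over CT-179, the members lay between −0.16 (Ncan) and 0.18 (Tnc) with a false discovery rate of 1 for each.

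The partners of these genes were read from lists of 83 genes in 5 groups. Among 19 tested ligands, receptors and cell-surface partners, Cntn1, which encodes contactin-1, a receptor that binds tenascin-R and PTPRZ1, was lower at 144 h like Tnr. Cntn1 had 25.7, 16.3 and 24.0 FPKM under CT-179 at 144 h, against 35.4, 36.3 and 35.0 FPKM with vehicle, without overlap. Its log2 fold change was −0.70 ± 0.13 (adjusted p = 0.0186) with 12 libraries and −0.50 ± 0.038 (adjusted p = 2e-05) with 11, and the difference from 24 h was −0.47 ± 0.051 with 11 (adjusted p = 0.00217) and −0.67 ± 0.19 with 12 (adjusted p = 0.693). Ptn, which encodes pleiotrophin, had 424, 571 and 441 FPKM under CT-179 at 144 h, against 351, 340 and 369 FPKM with vehicle, and passed with 11 libraries (0.29 ± 0.038, adjusted p = 0.000411) but not with 12 (0.43 ± 0.10, adjusted p = 0.0551). Pdgfra, the receptor that marks oligodendrocyte precursors, gave −0.02 ± 0.042 at 144 h with 11 libraries (adjusted p = 0.75). At 24 h none of the 19 passed with 12 libraries (limma, 1 at an unadjusted p below 0.05), and with 11 libraries 1 was higher (Sdc3, 0.13) and 7 lower, where 8.08% of all genes were higher and 14.1% lower (3.07% and 26.9% with TPM scaling, 21% and 8.62% with median-of-ratios scaling), led by Egfr (−0.28, adjusted p = 0.000131) and Ncam1 (−0.21, adjusted p = 0.00251). At 144 h 1 was lower and none higher with 12 libraries, where 3.37% of all genes were lower and 0.512% higher, and 2 were higher and 4 lower with 11, where 11.8% were higher and 16.9% lower. The medians with 12 libraries were −0.05 at 24 h and −0.22 at 144 h, beside −0.01 and −0.05 over all genes tested. At 144 h the median of this list was −0.02 with 11 libraries, beside −0.01 over all genes. After the length correction with 12 libraries it was −0.07, beside 0.0049.

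The other 4 lists are read against the same shares of all genes. Among 19 tested genes of chondroitin sulfate chain synthesis and sulfation, Chst7, a sulfotransferase, was higher at 144 h (0.41 ± 0.072, adjusted p = 0.0131 with 12 libraries, and 0.36 ± 0.055, adjusted p = 0.00107 with 11). After the length correction with 12 libraries no gene of this list passed there, where 1.7% of all genes were higher and 3.76% lower. After that correction with 11 libraries 2 were higher, where 13.1% of all genes were higher. With 11 libraries 2 genes of this list were higher and 1 lower at 144 h, with Xylt1, which starts the chains, the only gene lower at 24 h (−0.20, adjusted p = 0.00253). Of 13 tested matrix proteases and inhibitors none passed at either time with 12 libraries (limma, 1 at 24 h and 3 at 144 h at an unadjusted p below 0.05). With 11 libraries, of 12 tested, 2 were lower at 24 h (Adamts20 and Adamts1), and 4 were higher and 2 lower at 144 h, with Timp2 at 0.22 (adjusted p = 0.000134) and Timp3 at −0.21 (adjusted p = 0.00368). Of 6 hyaluronan genes none passed with 12 libraries (limma, none at 24 h and 1 at 144 h at an unadjusted p below 0.05), and 3 were higher at 144 h with 11, Cemip2 and Cd44 among them (0.19 each), though Cemip2 was at −0.14 with 12. Of the other lecticans, link proteins and tenascins only 2 were tested, Tnxb and Hapln4. Tnxb entered the test through the vehicle 144 h libraries alone (1.29 to 1.37 FPKM), the only ones where it reached 1 FPKM, and was at 0.285 to 0.745 FPKM under CT-179 at 144 h, so its call there (1 lower of 2) is given no weight. In brain no list gene passed (limma, 2 of 65 at an unadjusted p below 0.05).

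With time in vehicle, 12 of 19 partner genes were higher and 4 lower with 12 libraries, where 34.1% of all genes were higher and 32.4% lower, the shares against which the other lists stand too. Nrcam, a cell adhesion molecule, rose to 21.0 ± 0.172 FPKM at 144 h, against 2.28 ± 0.0652 FPKM at 24 h (2.75 ± 0.22 on the log2 scale, adjusted p = 1.06e-06), and Cntn3 was lower (−2.27 ± 0.14, adjusted p = 1.68e-07). Of 19 chain synthesis genes 3 were higher and 10 lower, with Chst7 at 7.45 ± 0.345 FPKM at 144 h, against 66.7 ± 4.97 FPKM at 24 h. Of 13 proteases and inhibitors 7 were higher and 3 lower, with Timp3 at 51.7 ± 1.93 FPKM at 144 h, against 7.56 ± 0.324 FPKM at 24 h. The hyaluronan receptor Cd44 (−1.13 ± 0.068, adjusted p = 1.04e-07) and Hmmr (−3.19 ± 0.11, adjusted p = 1.25e-09) were among 3 of 6 hyaluronan genes that were lower, and 1, Hyal1, was higher. Tnxb and Hapln4 each reached 1 FPKM at 1 of the times only, Tnxb at 144 h and Hapln4 at 24 h, so the filter fixed their directions over time.

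The SHH marker sum moved with treatment at 144 h, at 30.8 to 53.8 FPKM under CT-179 and 66.2 to 68.4 FPKM with vehicle, and oligodendrocyte precursor marker sums were 924 to 1110 FPKM under CT-179 and 857 to 892 FPKM with vehicle. Olig1 (511 ± 98.9 FPKM under CT-179 and 397 ± 6.34 FPKM with vehicle) carried most of the gap in the precursor sum, while Gpr17 was at 24.5 ± 3.45 FPKM under CT-179 and 49.3 ± 3.16 FPKM with vehicle, Pdgfra at 17.3 ± 6.62 and 21.4 ± 0.294 FPKM, and Lhfpl3 at 43.6 ± 8.04 and 48.4 ± 0.978 FPKM. The 144 h CT-179 sums and means include replicate 2. The ratio of means of Pdgfra, CT-179 over vehicle, was 0.807 with that library and 0.985 without it. The part of these markers in the members' changes was not tested. Across the 4 cell group means, the genes most like each member by root mean square difference of centred log2(FPKM + 1) were Cd47 for Bcan (0.00573), Jak2 and St8sia2 for Ncan (0.00767 and 0.00971), Phf23 for Cspg5 (0.00139) and Dync2h1 for Ptprz1 (0.00981), over 12 libraries. Vcan and Tnr had no such close match: the nearest were Pitpnm2 (0.0969) and Caskin1 (0.12) for Vcan, and Tub (0.116) and Zfp57 (0.118) for Tnr. The distance is not scaled to the size of a gene's changes, which were wide for Vcan and Tnr over time. The CT-179 144 h mean in it includes replicate 2. Cspg4 lay nearest Ccp110 (0.0186) and Tnc nearest Cad (0.0309). No member was among the 2 nearest genes of another member.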

How the data were processed

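Total RNA was isolated on RNeasy columns and a SMARTer kit gave mRNA libraries, read as pairs of 100 bases, per the labels' protocols. The submitters' processing notes list mm10 and, as tools, R 3.6, edgeR 3.28.1, HTSeq 0.6.1p2, STAR 2.6.0c and Trim Galore 0.5.0, with no settings or strand. Both deposited tables hold FPKM for each gene in each library. The brain table also holds the authors' log2 fold change, p-value, false discovery rate and a likelihood ratio score that was not used, per the file headers. That fold change matched vehicle replicates 1 and 3 over CT-179 (Pearson's r 1.0 across 12544 genes, against 0.8064 with all 3 vehicle libraries). Low FPKM values times GENCODE M21 exonic length were whole multiples of 1 read (within 0.1 read, up to 20 reads) for 90.2% to 92.1% of low values in cell libraries and 93.8% to 98.5% in brain ones, which gave the implied depth. FPKM values were not treated as counts.

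Genes that reached 1 FPKM in 3 or more libraries were tested with limma 3.58.1 (R 4.3.3) on log2(FPKM + 1), group means, a mean-variance trend, two-sided, with Benjamini-Hochberg adjustment over all genes and a threshold of 0.05. A single fit held 12 cell libraries and another 6 brain libraries; of the 9 members 8 were tested in cells and 9 in brain. Alternatives were a pseudocount of 0.1, no filter, median-of-ratios and TPM scaling, a length correction (loess, span 0.5), a replicate block, array weights, separate fits per time and leaving out each library; 3 that joined a scaling or the length correction with the omission of CT-179 144 h replicate 2 were chosen after seeing the data. Replicate numbers deviated together only between CT-179 144 h and 24 h (correlations of deviations 0.11, 0.24 and 0.14), which the rule of over 0.1 in every pair takes as paired; the block left the count of members there at 3 higher and 2 lower. The members and gene lists were chosen with earlier results of these data known. List genes are named by up to 2 risen and 2 fallen per list and contrast with the smallest adjusted p, plus Pdgfra, Ptn and Cntn1, and for each member the 2 genes most like it. Not every gene this rule names is printed.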

Additional observations from a re-analysis of the deposited data

How the results depend on the processing

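Counts of members past the threshold moved most with the setting. At 24 h the count was 0 with 12 libraries, 5 with array weights, 4 with a separate fit, and without CT-179 144 h replicate 2 it was 5 with the length correction, 4 with median-of-ratios and 5 with TPM scaling; leaving out 1 library gave 0 to 4. At 144 h it was 1 with 12 libraries, 0 with a pseudocount of 0.1, no filter, TPM scaling, the replicate block and a separate fit, 2 with the length correction, 8 with array weights, 6 under each of the 3 corrections without that replicate (0 higher under TPM scaling, 2 higher under the others), and 0 to 4 with 1 library left out. For the difference between times it was 0, then 2 with array weights and with the length correction, 1 with median-of-ratios and 1 with TPM scaling (the last 3 without that replicate), and 0 to 1 with 1 library left out. For time under CT-179 it was 5, then 8 with array weights and with median-of-ratios without that replicate, and 4 to 8 with 1 library left out; for time in vehicle it was 5 to 8 under all settings, and in brain 0. The replicate block ended 2 calls, Tnr at 144 h (adjusted p = 0.0589) and Cspg4 over time in vehicle (adjusted p = 0.0646), and changed no other. Leaving out CT-179 144 h replicate 1 gave 3 lower members at 144 h. The standard error of Vcan at 24 h was 0.35 with 12 libraries and 0.036 without CT-179 144 h replicate 2, at the same estimate. The cause of these moves was not tested.

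Signs that reversed, as log2 fold changes, were as follows. TPM scaling gave Ncan −0.059, Cspg5 −0.025 for CT-179 over vehicle at 24 h, Bcan −0.19 for CT-179 over vehicle at 144 h, Bcan −0.060 for the difference between times, Bcan −0.054, Ncan −0.043, Cspg4 −0.072, Cspg5 −0.0014, Hapln1 −0.025 for brain. Length correction gave Tnr 0.058 for CT-179 over vehicle at 24 h, Tnc 0.062 for the difference between times. Array weights gave Ncan −0.030 for CT-179 over vehicle at 24 h, Bcan −0.13, Ncan 0.11 for CT-179 over vehicle at 144 h, Vcan 0.20, Bcan −0.020, Ncan 0.14, Cspg4 0.060, Tnc 0.28 for the difference between times, Cspg5 −0.13, Ptprz1 0.18 for time under CT-179, Ncan −0.032, Cspg4 −0.043 for brain. Length correction on the 11 libraries gave Tnr 0.059 for CT-179 over vehicle at 24 h, Bcan −0.084, Ncan 0.18 for CT-179 over vehicle at 144 h, Vcan 0.19, Bcan −0.022, Ncan 0.12, Cspg4 0.014, Tnc 0.27 for the difference between times, Cspg5 −0.24, Ptprz1 0.064 for time under CT-179. TPM scaling on the 11 libraries gave Ncan −0.059, Cspg5 −0.025 for CT-179 over vehicle at 24 h, Bcan −0.16, Ncan 0.057 for CT-179 over vehicle at 144 h, Vcan 0.23, Bcan −0.023, Ncan 0.12, Cspg4 0.013, Ptprz1 0.0011, Tnc 0.27 for the difference between times, Cspg5 −0.059, Ptprz1 0.31 for time under CT-179. Median-of-ratios scaling on the 11 libraries gave Bcan −0.039, Ncan 0.17 for CT-179 over vehicle at 144 h, Vcan 0.19, Bcan −0.029, Ncan 0.11, Cspg4 0.010, Tnc 0.26 for the difference between times, Cspg5 −0.21, Ptprz1 0.15 for time under CT-179. With 1 library left out, the ranges that crossed 0 were Ncan −0.037 to 0.031, Cspg5 −0.0038 to 0.062 for CT-179 over vehicle at 24 h, Bcan −0.095 to 0.072, Ncan −0.43 to 0.12 for CT-179 over vehicle at 144 h, Vcan −0.63 to 0.19, Bcan −0.022 to 0.14, Ncan −0.43 to 0.12, Cspg4 −0.41 to 0.017, Ptprz1 −0.64 to 0.0012, Tnc −0.31 to 0.27 for the difference between times, Cspg5 −0.15 to 0.15, Ptprz1 −0.43 to 0.21 for time under CT-179, Bcan −0.018 to 0.11, Ncan −0.049 to 0.15, Cspg4 −0.15 to 0.11, Hapln1 −0.024 to 0.14 for brain. TPM scaling on the 11 libraries moved the median of all genes over time to 0.10 in vehicle and 0.11 under CT-179. Of all results by setting, 825 kept direction and side, 71 gained a call, 40 lost one and 77 reversed.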
